A study of Homo sapiens with 24 samples.

Results

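CYT1 cells, which stably express the CYT1 isoform of the receptor ERBB4, were compared with cells carrying only the control vector, both after incubation with the ERBB4 ligand neuregulin 1 (NRG1). The comparison used 4 of the study's 12 biological samples, chosen by the cell line and the ligand in their labels: samples 1 and 2 of CYT1 cells with NRG1 and samples 1 and 2 of vector cells with NRG1. Each sample was read on 2 arrays, so 8 of the 24 Illumina BeadChip arrays belong to it. Both lines derive from MCF10A, a widely used line of human breast epithelium that forms no tumours, and both were starved of serum for 48 h and then kept for 2 h with NRG1. The same lines without ligand and another line, which expresses the CYT2 isoform, were used where a value needed them. The series title calls the receptors full-length JM-a ERBB4, whereas the sample characteristics add ICD to the isoform name. The labels do not say whether a line is 1 clone or a pool, nor what drives the receptor, so what separates the lines besides ERBB4 cannot be told apart from it. They also do not say whether the biological samples were separate cultures, so each p-value reflects the spread among these samples, which may be technical.

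ERBB4 is a receptor tyrosine kinase of the EGFR family that binds neuregulins, dimerises with other members of the family and signals through the ERK and PI3K pathways. The JM-a form can be cut by proteases, which frees a soluble intracellular domain. The CYT1 tail carries a PI3K binding site that the CYT2 tail lacks. MCF10A cells have a basal-like character and express the keratins of basal epithelium. Cells of stratified epithelia that leave the basal layer turn on other keratins, desmosomal proteins, kallikrein-related peptidases and proteins of the cornified envelope.

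Values are normalized log2 intensities, and differences are CYT1 minus vector on the log2 scale with the standard error of the fit. The array's only probe for ERBB4 was above background on 0 of 4 arrays in CYT1 cells with NRG1 and on 0 of 4 in vector cells with NRG1, so the introduced receptor was not followed here. Between 19043 and 20370 of the 47323 probes were detected on each of the 8 arrays. In CYT1 cells with NRG1, sample 1 lay far from the others. On the first principal component of the 12 samples, which held 24.5% of the variance, it lay at -18.2, against -0.57 for sample 2 and -3.47 and -3.66 for the vector samples with NRG1. The root mean square difference between samples 1 and 2 was 0.255 in CYT1 cells with NRG1 and 0.158 in vector cells with NRG1. Results are therefore also given without that sample. All 8 epithelial markers on the array, among them KRT5, KRT14, CDH1 and EPCAM, were detected on all 8 arrays. Their summed level was 14.94 to 15.04 in CYT1 cells and 15.01 to 15.06 in vector cells. Of 10 fibroblast markers, 4 (COL1A1, DCN, FAP and ACTA2) were detected on all 8 arrays and 5 (COL3A1, LUM, PDGFRA, PDGFRB and THY1) on none, with summed levels of 9.999 to 10.24 in CYT1 cells and 10.16 to 10.31 in vector cells. Of 12 immune and endothelial markers, 3 (CD14, CD68 and CSF1R) were detected on all 8 arrays and 7 (PTPRC, CD3E, LYZ, PECAM1, VWF, CDH5 and KDR) on none, and the summed level was 9.30 to 9.50 in CYT1 cells and 9.56 to 9.58 in vector cells.

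With NRG1, KRT13 and KLK7 were lower in CYT1 cells than in vector cells, and no gene was higher at the same threshold. KRT13 is an intermediate filament protein of the upper layers of mucosal stratified epithelium, and KLK7 is a serine protease of the outer epidermis that cleaves the desmosomes between cornified cells. These were the genes past an adjusted p of 0.05 (limma, Benjamini-Hochberg adjustment) among 12357 tested, which is 0.0162%. An unadjusted p under 0.05 was reached by 496 genes higher (4.01%) and 617 lower (4.99%) in CYT1 cells. At an adjusted p under 0.1 there were 34 genes, of which 27 were lower and 7 higher. An exact permutation test of 2 samples against 2 cannot go below 0.333, so no single gene can be tested without the model.

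KRT13 measured 5.40 and 5.03 in the CYT1 samples with NRG1, against 6.48 and 6.69 in the vector samples with NRG1. Both CYT1 samples lay more than 1 log2 unit below both vector samples. KRT13 fell by 1.37 ± 0.14 (SE), which is 2.59-fold lower, with an adjusted p of 0.00619 in limma. KLK7 measured 6.11 and 6.40 in CYT1 cells and 7.65 and 7.79 in vector cells, again with no overlap. It was 2.76-fold lower in CYT1 cells, a log2 difference of -1.47 ± 0.19 and an adjusted p of 0.0338 in limma. The sizes depended on the background correction. Without it KRT13 differed by -0.53 and KLK7 by -0.83, both with an adjusted p of 0.0436, and in the authors' unnormalized values they differed by -0.51 and -0.79. In bulk RNA, fewer cells with a transcript and less of it per cell cannot be told apart. Without sample 1 of CYT1 cells, KRT13 differed by -1.56 and stayed past the threshold, and KLK7 differed by -1.32 with an adjusted p of 0.247. The adjusted p of KRT13 missed the threshold without sample 2 of vector cells (0.172), with only the compared groups in the fit (0.0521), with no detection filter (0.0675) and in the authors' unnormalized values (0.501), and that of KLK7 missed it on leaving out either vector sample (0.122 and 0.597 for samples 1 and 2), with no detection filter (0.135), with technical array 2 alone (0.13) and in the authors' unnormalized values (0.501).

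**Figure D1:**
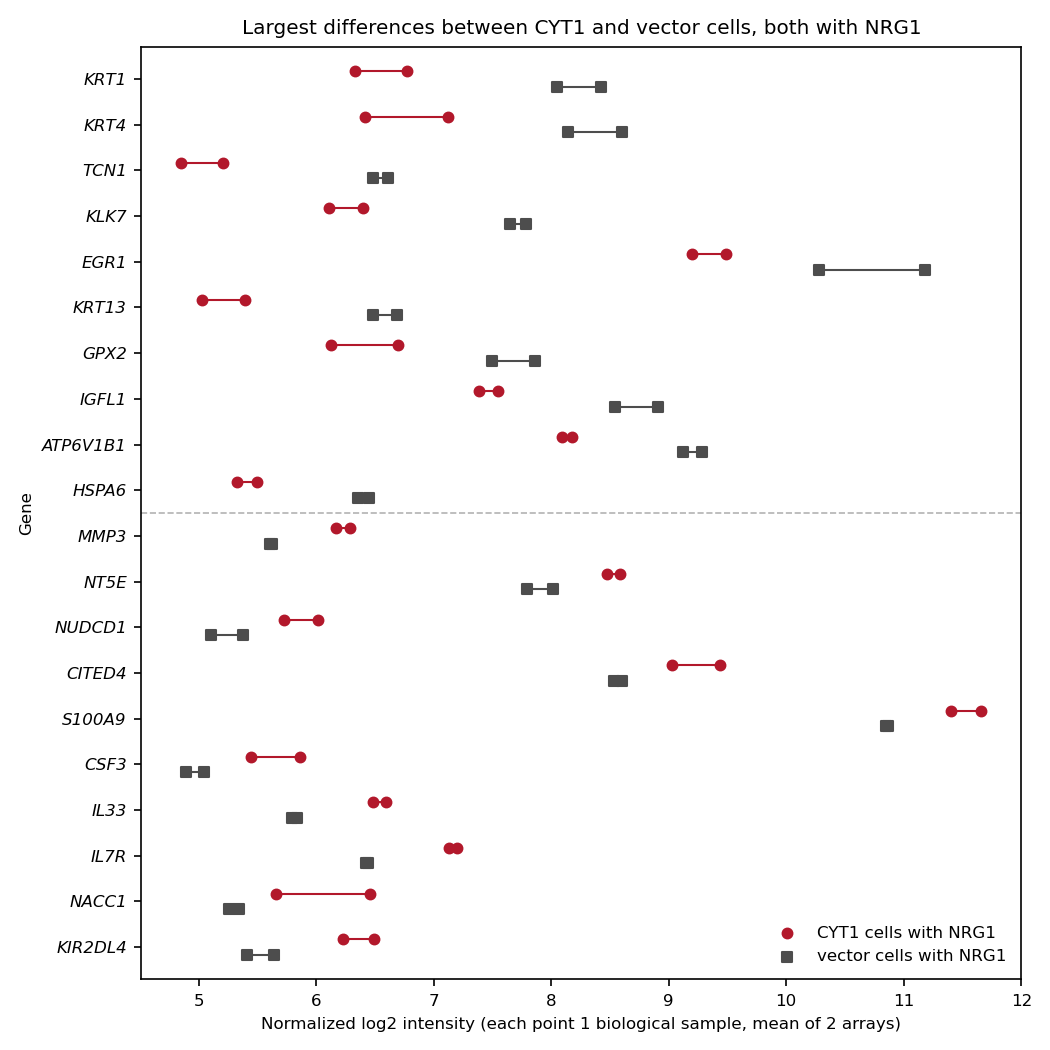
Normalized log2 intensity (x axis) of the 10 genes with the largest lower and the 10 with the largest higher differences (y axis, above and below the dashed line). Each point is 1 biological sample, the mean of 2 arrays, with CYT1 cells with NRG1 as red circles and vector cells with NRG1 as grey squares, and a line joins the samples of a group. KRT13 sits at 5.03 to 5.40 in CYT1 cells and at 6.48 to 6.69 in vector cells.

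The other keratins of differentiation showed the 2 most negative differences of all 12357 genes, without passing the threshold. KRT1, the epidermal partner of KRT10 above the basal layer, measured 6.78 and 6.33 in CYT1 cells and 8.05 and 8.42 in vector cells. KRT4, the partner of KRT13 in mucosal epithelium, measured 7.13 and 6.42 in CYT1 cells and 8.14 and 8.60 in vector cells. The groups did not overlap for either gene, as the rule that named them required. The differences were -1.68 ± 0.32 for KRT1 and -1.60 ± 0.29 for KRT4, each with an adjusted p of 0.0929 in limma. KRT10 measured 11.21 and 11.01 in CYT1 cells and 11.84 and 12.17 in vector cells, a difference of -0.89 ± 0.18 with an adjusted p of 0.106. Both filament pairs, KRT1 with KRT10 and KRT4 with KRT13, thus had lower means in CYT1 cells, while only KRT13 passed.

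The gene lists described from here on were chosen with earlier results of these data known, so their counts are a description. Of 27 keratinocyte differentiation genes, 20 were measured. Their median difference was -0.29, against -0.005 over all genes, 16 lay below 0, and 1 passed the threshold. The median was -0.17 without background correction and -0.12 in the authors' unnormalized values. At an unadjusted p under 0.05, 10 were lower and 1 was higher, against 4.99% and 4.01% of all genes. The lower ones were KRT1, KRT4, KRT10, KRT13, KRT80 (-0.55, with -0.11 at its other probe), the desmosomal cadherin DSG1 (-0.68), suprabasin SBSN (-0.53, detected on 3 of the 4 CYT1 and 4 of the 4 vector arrays), SPRR1B (-0.44) and CNFN (-0.37), which contribute to the cornified envelope, and the calcium-binding S100P (-0.38). The higher one was S100A9, a subunit of calprotectin. It measured 11.66 and 11.41 in CYT1 cells and 10.85 and 10.86 in vector cells, a difference of 0.68 ± 0.15 with an adjusted p of 0.164. Its partner S100A8 differed by 0.20 with an unadjusted p of 0.23. SPRR2A, SPRR2D, PI3 and KRT16 lay between -0.10 and 0.12. The count of 10 lower members became 8 on leaving out either CYT1 sample, 8 on leaving out sample 1 of vector cells and 6 on leaving out sample 2 of vector cells.

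Kallikrein-related peptidases form a cascade of secreted serine proteases in skin, in which KLK5 activates KLK7. Of 10 genes, 6 were measured, with a median difference of -0.52, or -0.24 without background correction and -0.20 in the authors' unnormalized values. Of the 6, KLK7 passed and 4 were lower at an unadjusted p under 0.05, against 0.0162% and 4.99% of all genes in this direction. KLK5 measured 9.47 and 9.10 in CYT1 cells and 10.08 and 10.29 in vector cells, a difference of -0.90 ± 0.17 with an adjusted p of 0.0929. Its other probes differed by -0.85 and -1.004. KLK10 differed by -0.59 ± 0.18 and KLK11 by -0.45 ± 0.13, both with groups that did not overlap and adjusted p-values of 0.394 and 0.354, and the other probe of KLK10 differed by -0.12. KLK6 was above background on 1 of 4 CYT1 arrays and 1 of 4 vector arrays and KLK8 on none of either, so no difference is given for them. Leaving out 1 sample at a time gave 3 or 4 lower members.

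The promoters of members from both lists are shown because the genes had lower values together. They were taken from RefSeq (GRCh38.p14), 250 bases before to 50 after a listed start, on the gene's strand, 5′ to 3′. Capitals mark TATAA on either strand. KLK7 lies at chr19:50983868-50984167 (minus strand, the first of its 3 listed starts), KLK5 at chr19:50952989-50953288 (minus strand) and KRT4 at chr12:52814067-52814366 (minus strand).
KLK7: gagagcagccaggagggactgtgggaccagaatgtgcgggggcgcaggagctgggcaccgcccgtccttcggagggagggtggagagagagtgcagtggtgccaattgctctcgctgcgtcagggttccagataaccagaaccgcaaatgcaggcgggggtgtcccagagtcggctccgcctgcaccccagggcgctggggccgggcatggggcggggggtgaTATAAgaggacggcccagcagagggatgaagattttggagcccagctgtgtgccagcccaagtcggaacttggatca
KLK5: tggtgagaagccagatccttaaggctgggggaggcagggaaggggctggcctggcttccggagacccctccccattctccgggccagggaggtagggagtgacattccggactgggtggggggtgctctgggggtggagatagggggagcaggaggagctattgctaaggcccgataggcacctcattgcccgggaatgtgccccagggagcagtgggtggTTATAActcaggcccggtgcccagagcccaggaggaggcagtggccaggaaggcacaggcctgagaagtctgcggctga
KRT4: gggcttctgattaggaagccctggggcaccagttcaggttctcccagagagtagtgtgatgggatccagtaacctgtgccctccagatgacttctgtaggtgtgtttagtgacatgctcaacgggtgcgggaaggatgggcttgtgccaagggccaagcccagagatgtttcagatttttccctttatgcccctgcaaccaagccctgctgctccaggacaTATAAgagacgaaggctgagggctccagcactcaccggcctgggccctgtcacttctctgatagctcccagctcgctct
TATAA lies 27 bases before the start in KLK7 and 29 bases before it in KRT4. It was found in 21.1% of all 27305 promoters of this length. Of the 10 lower genes, 8 had a promoter, and 2 of these (25%), KLK7 and KRT4, held TATAA. Of the 10 higher genes, 7 had a promoter, and 3 of these (42.9%) held it. None of the 3 printed promoters holds TGANTCA, the AP-1 motif in which N is any base, on either strand, which 7.76% of all promoters do. These matches describe the sequences only.

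Other genes with large negative differences were not keratins. TCN1, which encodes a secreted vitamin B12 binding protein, measured 5.20 and 4.85 in CYT1 cells and 6.48 and 6.61 in vector cells. It differed by -1.52 ± 0.22 with an adjusted p of 0.0541, and it was detected on 2 of the 4 CYT1 arrays and on 4 of the 4 vector arrays. ATP6V1B1, a subunit of the proton pump V-ATPase, measured 8.09 and 8.18 in CYT1 cells and 9.12 and 9.29 in vector cells, a difference of -1.07 ± 0.16 with an adjusted p of 0.0541. IGFL1, a secreted protein of the IGF-like family, measured 7.55 and 7.38 in CYT1 cells and 8.55 and 8.91 in vector cells, a difference of -1.26 ± 0.21 (adjusted p 0.061). GPX2, a glutathione peroxidase of epithelia, measured 6.70 and 6.13 in CYT1 cells and 7.49 and 7.86 in vector cells, a difference of -1.26 ± 0.23 (adjusted p 0.0929). None of these 4 passed. Their groups did not overlap because that was a condition for naming them, which 20.2% of all genes met in this direction.

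EGR1, a zinc finger transcription factor of the immediate-early class, had the largest standard error of the 10 lower genes. It measured 9.49 and 9.20 in CYT1 cells and 10.28 and 11.18 in vector cells, a difference of -1.39 ± 0.36 with an adjusted p of 0.263. HSPA6, a stress-induced HSP70 protein, measured 5.33 and 5.50 in CYT1 cells and 6.45 and 6.36 in vector cells, a difference of -0.99 ± 0.26 with an adjusted p of 0.267, and its other probe differed by -0.33. Without sample 1 of CYT1 cells the 10 lower genes differed by -1.96 to -0.91. Their sign could not change, because they were chosen for groups that do not overlap. Their median of -1.38 became -0.85 without background correction and -0.78 in the authors' unnormalized values. The differences that shrank most in proportion to their size were those of KRT13, TCN1 (-0.57) and HSPA6 (-0.38 without background correction).

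The 10 largest higher differences were smaller, from 0.61 to 0.83, and no gene passed. Their median of 0.68 became 0.32 without background correction and 0.36 in the authors' unnormalized values. KIR2DL4, known as a receptor of natural killer cells, measured 6.23 and 6.49 in CYT1 cells and 5.64 and 5.41 in vector cells. It differed by 0.83 ± 0.13 with an adjusted p of 0.061, in samples where PTPRC and CD3E were detected on no array. IL7R, the receptor chain for interleukin 7, measured 7.13 and 7.20 in CYT1 cells and 6.42 and 6.44 in vector cells. It differed by 0.73 ± 0.12 with an adjusted p of 0.0581, the smallest among the higher genes, and by 0.31 at its other probe. MMP3, the matrix metalloproteinase stromelysin-1, measured 6.17 and 6.29 in CYT1 cells and 5.63 and 5.61 in vector cells, a difference of 0.61 ± 0.12 with an adjusted p of 0.0929. The CYT1 samples lay above both vector samples in all 10 because that was a condition for naming them. Of all genes, 19.1% met this condition.

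The cytokines IL33 and CSF3 (granulocyte colony-stimulating factor) differed by 0.73 ± 0.16 and 0.68 ± 0.22, with adjusted p-values of 0.163 and 0.431. IL33 measured 6.59 and 6.49 in CYT1 cells and 5.84 and 5.79 in vector cells. CSF3 measured 5.87 and 5.45 in CYT1 cells and 4.89 and 5.05 in vector cells, where 3 of the 4 arrays detected it, and its other probe differed by 0.62. CITED4, a transcriptional co-regulator that binds CBP and p300, measured 9.44 and 9.03 in CYT1 cells and 8.54 and 8.61 in vector cells, a difference of 0.66 ± 0.16 (adjusted p 0.216). NT5E, the cell surface enzyme CD73, differed by 0.62 ± 0.20 (adjusted p 0.439) and NUDCD1 by 0.63 ± 0.13 (adjusted p 0.099). NACC1, a transcriptional regulator, was high in 1 CYT1 sample. It measured 6.46 in sample 1 and 5.66 in sample 2 of CYT1 cells, against 5.26 and 5.34 in vector cells, so that its difference of 0.76 ± 0.23 became 0.36 without sample 1, and its other probe differed by 0.12.

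The same lines without ligand gave the line difference in samples that share none with the comparison above. There 24 genes passed (0.194%), 18 lower (0.146%) and 6 higher (0.0486%) in CYT1 cells, and 1724 had an unadjusted p under 0.05 (14%). With NRG1, 23 of these 24 had a difference of the same sign and 19 an unadjusted p under 0.05 in that direction. Over all genes 58.9% had the same sign in both, and 4.01% were higher and 4.99% lower at that p with NRG1. The exception in sign was F3, tissue factor, at 0.08 ± 0.16 with NRG1 and -0.92 ± 0.16 without ligand, and its other probe gave 0.42 and -0.14. Across all 12357 genes the differences with and without ligand had a Pearson correlation of 0.36, as a description across genes, which are not independent.

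Without ligand all 10 lower genes were below 0, from -1.98 to -0.64, and 6 passed the threshold, with medians of the 10 of -1.38 with NRG1 and -1.28 without ligand. The smallest was that of EGR1, at -0.64 ± 0.36 without ligand (unadjusted p 0.101) and -1.39 ± 0.36 with NRG1. KRT13 averaged 4.95 ± 0.006 in CYT1 cells and 6.58 ± 0.25 in vector cells without ligand (SD), a difference of -1.63 ± 0.14 with an adjusted p of 0.000922 in limma, and 2 of the 4 CYT1 arrays without ligand detected it. KLK7 averaged 6.20 ± 0.17 in CYT1 cells and 7.46 ± 0.41 in vector cells without ligand, a difference of -1.27 ± 0.19 with an adjusted p of 0.0276. KRT1 (-1.98), KRT4 (-1.82), TCN1 (-1.54) and IGFL1 (-1.27) were the others that passed. TCN1 too was detected on 2 of the 4 CYT1 arrays without ligand. The NRG1 effect on KRT13 was 0.26 in CYT1 cells and 0.007 in vector cells, and on KLK7 it was 0.06 in CYT1 cells and 0.26 in vector cells. The lower genes past the threshold without ligand with the smallest p also had lower values with NRG1 for SCGB1A1, the secretory protein uteroglobin, at -0.91 ± 0.14 (adjusted p 0.0581) and for GPRC5A, an orphan G-protein coupled receptor, at -0.68 ± 0.16, but GBP1, an interferon-induced GTPase, was at -0.15 ± 0.12 with NRG1 and -0.83 without, and 0.07 and -0.45 at its other probe.

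**Figure D2:**
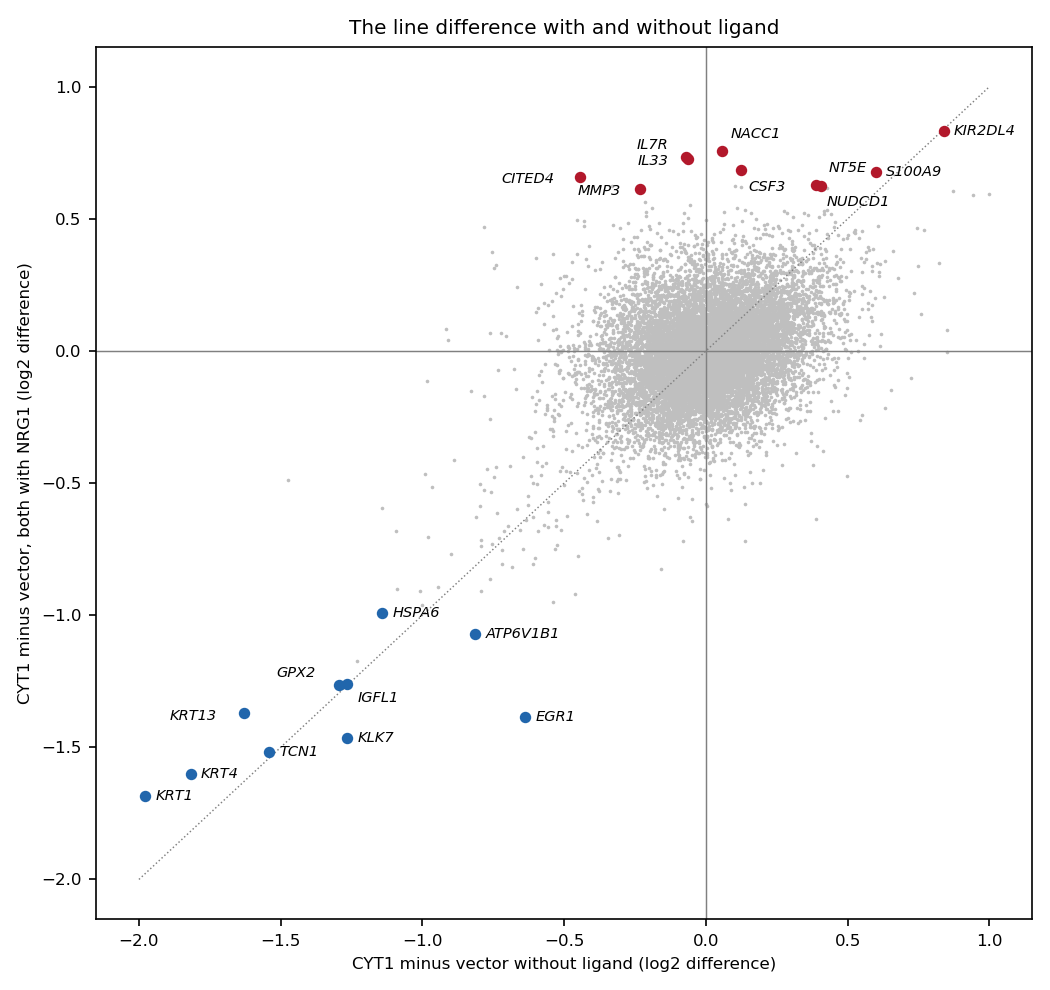
Log2 difference CYT1 minus vector with NRG1 (y axis) against the same difference without ligand (x axis) for 12357 genes (grey points), with the 10 lower genes in blue and the 10 higher genes in red, and a dotted line where the 2 are equal. The lower genes have medians of -1.38 with NRG1 and -1.28 without ligand, with EGR1 at -1.39 and -0.64, whereas the higher genes have medians of 0.68 with NRG1 and 0.09 without ligand.

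Of the 10 higher genes, 6 had a difference of the same sign without ligand and 1, KIR2DL4, passed there with 0.84 ± 0.13 (adjusted p 0.0289). S100A9 (0.60), NT5E (0.40) and NUDCD1 (0.39) were above 0 in both, whereas IL7R (-0.07), IL33 (-0.06), MMP3 (-0.23) and CITED4 (-0.44) were below 0 without ligand. For the higher genes past the threshold without ligand, POGLUT3, an enzyme that adds glucose to proteins, differed by 0.60 ± 0.11 with NRG1 and 1.0 ± 0.11 without (detected there on 3 of the 4 vector arrays), and the amino acid transporter SLC6A15 by 0.38 ± 0.10 and 0.66 ± 0.10, with 0.24 and 0.16 at its other probes with NRG1. TMT1A, a methyltransferase, differed by 0.33 ± 0.12 with NRG1 and 0.82 ± 0.12 without. DPYSL4, a cytosolic protein of neurons, was detected on all 4 CYT1 arrays with NRG1 and on no vector array with NRG1, and was at least 1.21-fold higher in CYT1 cells by the lowest detected signal.

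Whether the line difference itself changed with ligand was tested as the NRG1 effect in CYT1 cells minus that in vector cells. No gene passed in limma, the smallest adjusted p was 0.546, and 734 genes had an unadjusted p under 0.05 (5.94%). The 3 smallest p-values belonged to FBLIM1, an adaptor of cell-matrix contacts (1.13 ± 0.21), the kinase MAP3K9 (0.77 ± 0.15) and the growth factor TGFA (0.81 ± 0.16). FBLIM1 differed by 0.37 with NRG1 and -0.76 without ligand, and by 0.15 and -0.44 at its other probe. The other probe of TGFA differed by 0.19 and -0.55. Among the 10 higher genes 4 had an unadjusted p under 0.05 in this test (MMP3 0.84, CITED4 1.103, IL7R 0.80 and IL33 0.79), and among the 10 lower genes none had. Because the difference with NRG1 enters this test and chose those genes, their values are a description.

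Genes of the ERBB family at the top of the pathway gave small differences. The receptors EGFR, ERBB2 and ERBB3 differed by 0.01 ± 0.11, -0.08 ± 0.11 and -0.29 ± 0.16, and the adjusted p-values were 0.975, 0.82 and 0.611. The other probe of EGFR differed by -0.20 and that of ERBB3 by 0.03, each opposite in sign. EGFR measured 9.88 and 9.63 in CYT1 cells and 9.74 and 9.75 in vector cells, and ERBB2 measured 8.94 and 9.06 in CYT1 cells and 9.09 and 9.06 in vector cells, so that the groups overlapped for EGFR and lay close together for ERBB2. The sign changed for EGFR without sample 1 of CYT1 cells (-0.11) and for ERBB2 under median scaling (0.02) and in the authors' unnormalized values (0.03). Among the ligands, TGFA measured 9.96 and 9.81 in CYT1 cells and 9.45 and 9.36 in vector cells. It differed by 0.48 ± 0.11 with an adjusted p of 0.174, and by 0.19 at its other probe. Without ligand TGFA differed by -0.33 ± 0.11. EREG differed by 0.34 ± 0.18, HBEGF by 0.04 ± 0.37 and NRG1's own transcript by 0.10 ± 0.13. The other probes of NRG1, detected on 24 and 9 of the 24 arrays, differed by 0.57 and -0.008. HBEGF measured 11.03 and 10.44 in CYT1 cells and 10.54 and 10.85 in vector cells, so the groups overlapped, and its sign changed without sample 1 of CYT1 cells (-0.25). No probe carried the symbol AREG. Over all genes, 4.01% were higher and 4.99% lower at an unadjusted p under 0.05. Of 23 ERBB receptors, ligands and adaptors 17 were measured, with a median of 0.02 (0.11 with median scaling), and 1 was higher and 0 were lower at an unadjusted p under 0.05, which became 2 higher and 1 lower without sample 2 of CYT1 cells.

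Transcripts downstream of ERK signalling, a pathway that ERBB receptors activate, had a median difference near 0 with NRG1 and below 0 without ligand. Of 22 ERK pathway feedback and target genes, 20 were measured. With NRG1 their median difference was 0.09 (0.17 with median scaling). At an unadjusted p under 0.05, 1 was higher and 0 lower, against 4.01% and 4.99% of all genes. Without ligand the median was -0.34, with 0 higher and 10 lower, against 7.33% and 6.62% of all genes. That median was -0.165 without background correction, -0.085 in the authors' unnormalized values and -0.21 with median scaling. None of the list passed in either. The median NRG1 effect in the list was 0.40 in CYT1 cells and 0.02 in vector cells. The median of the effect in CYT1 cells minus that in vector cells was 0.49. It was 0.29 without background correction and 0.26 in the authors' unnormalized values. A larger effect in CYT1 cells was seen for 19 of the 20 members, against 5650 of all 12357 genes. For 6 of the 19 the unadjusted p was under 0.05 (3.07% of all genes). The phosphatase DUSP5 shows this shape. It averaged 9.70 ± 0.12 in CYT1 cells and 9.63 ± 0.14 in vector cells with NRG1, and 8.999 ± 0.107 in CYT1 cells and 9.72 ± 0.17 in vector cells without ligand (SD). The inhibitor SPRY4 differed by 0.32 ± 0.26 with NRG1 and -0.74 ± 0.26 without. PHLDA1 was the member higher with NRG1 at an unadjusted p of 0.0115, at 12.61 and 12.31 in CYT1 cells and 11.98 and 11.96 in vector cells, and its other probe differed by 0.13. The count of 10 lower members without ligand became 2 without sample 2 of CYT1 cells and 5 without sample 2 of vector cells, and with NRG1 the count of 0 lower became 2 without sample 1 of vector cells. The count of 1 higher with NRG1 became 5 when CYT1 sample 2 was left out, 0 for CYT1 sample 1 and 2 for vector sample 1.

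Of 26 immediate-early genes, which encode transcription factors and RNA regulators switched on within minutes of a growth factor, 23 were measured. The median was 0.04 with NRG1 (0.12 with median scaling and in the authors' unnormalized values) and -0.39 without ligand. Without ligand it was -0.14 in the authors' unnormalized values and -0.22 with median scaling. At an unadjusted p under 0.05, 0 were higher and 11 lower without ligand, against 7.33% and 6.62% of all genes. With NRG1, 1 was higher and 1 lower, against 4.01% and 4.99%. The higher member was FOSL1, an AP-1 subunit, at 8.62 and 8.21 in CYT1 cells and 7.93 and 7.97 in vector cells, a difference of 0.47 ± 0.20 (adjusted p 0.539). The lower one was EGR1, described above. KLF6 differed by 0.06 ± 0.17 with NRG1 and -0.71 ± 0.17 without ligand, and MAFF by 0.31 ± 0.21 and -0.75 ± 0.21. The other probes of MAFF, detected on 23 and 7 arrays, differed by 0.47 and 0.25 with NRG1. Without ligand these probes differed by 0.08 and -0.12, so the MAFF probes disagree in sign there. The NRG1 effect on EGR1 was -0.52 in CYT1 cells, where the list median was 0.29. It was 0.22 in vector cells, where the list median was -0.02, and the test of the difference gave an unadjusted p of 0.168. The 11 lower without ligand became 5 without sample 2 of CYT1 cells and 7 without sample 2 of vector cells. With NRG1 the 1 higher became 3 without sample 2 of CYT1 cells and 0 on leaving out any other of the 4 samples, and the 1 lower became 2 without sample 2 of CYT1 cells.

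FOXO target genes, which PI3K and AKT signalling is known to repress, were read next. Of 18 genes in the FOXO target and PI3K feedback list, 15 were measured. The median was -0.07 with NRG1 (0.009 in the authors' unnormalized values, so its sign is not settled) and 0.19 without ligand (0.09 without background correction and 0.31 with median scaling). Of the members 3 were lower and 0 higher with NRG1 at an unadjusted p under 0.05, against 1 lower and 5 higher without ligand, and that count of 5 became 2 on leaving out sample 2 of CYT1 cells or sample 1 of vector cells without ligand. Over all genes, 4.99% were lower and 4.01% higher at that p with NRG1, and 6.62% lower and 7.33% higher without ligand. TXNIP, an arrestin-like inhibitor of thioredoxin and glucose uptake, measured 11.10 and 11.12 in CYT1 cells and 11.62 and 12.04 in vector cells. It differed by -0.72 ± 0.13 with an adjusted p of 0.0817. FBXO32, a ubiquitin ligase subunit and a standard FOXO readout, measured 8.77 and 8.83 in CYT1 cells and 9.34 and 9.54 in vector cells, a difference of -0.64 ± 0.16 (adjusted p 0.246), against 0.39 ± 0.16 without ligand. Its other probe differed by -0.30 with NRG1 and by -0.11 without ligand, so the probes disagree in sign without ligand. The last was the cell cycle inhibitor CDKN1B (-0.29 ± 0.11). The median NRG1 effect in the list was -0.35 in CYT1 cells and -0.05 in vector cells, and 7 members had a lower effect in CYT1 cells at an unadjusted p under 0.05 (2.87% of all genes).

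**Figure D3:**
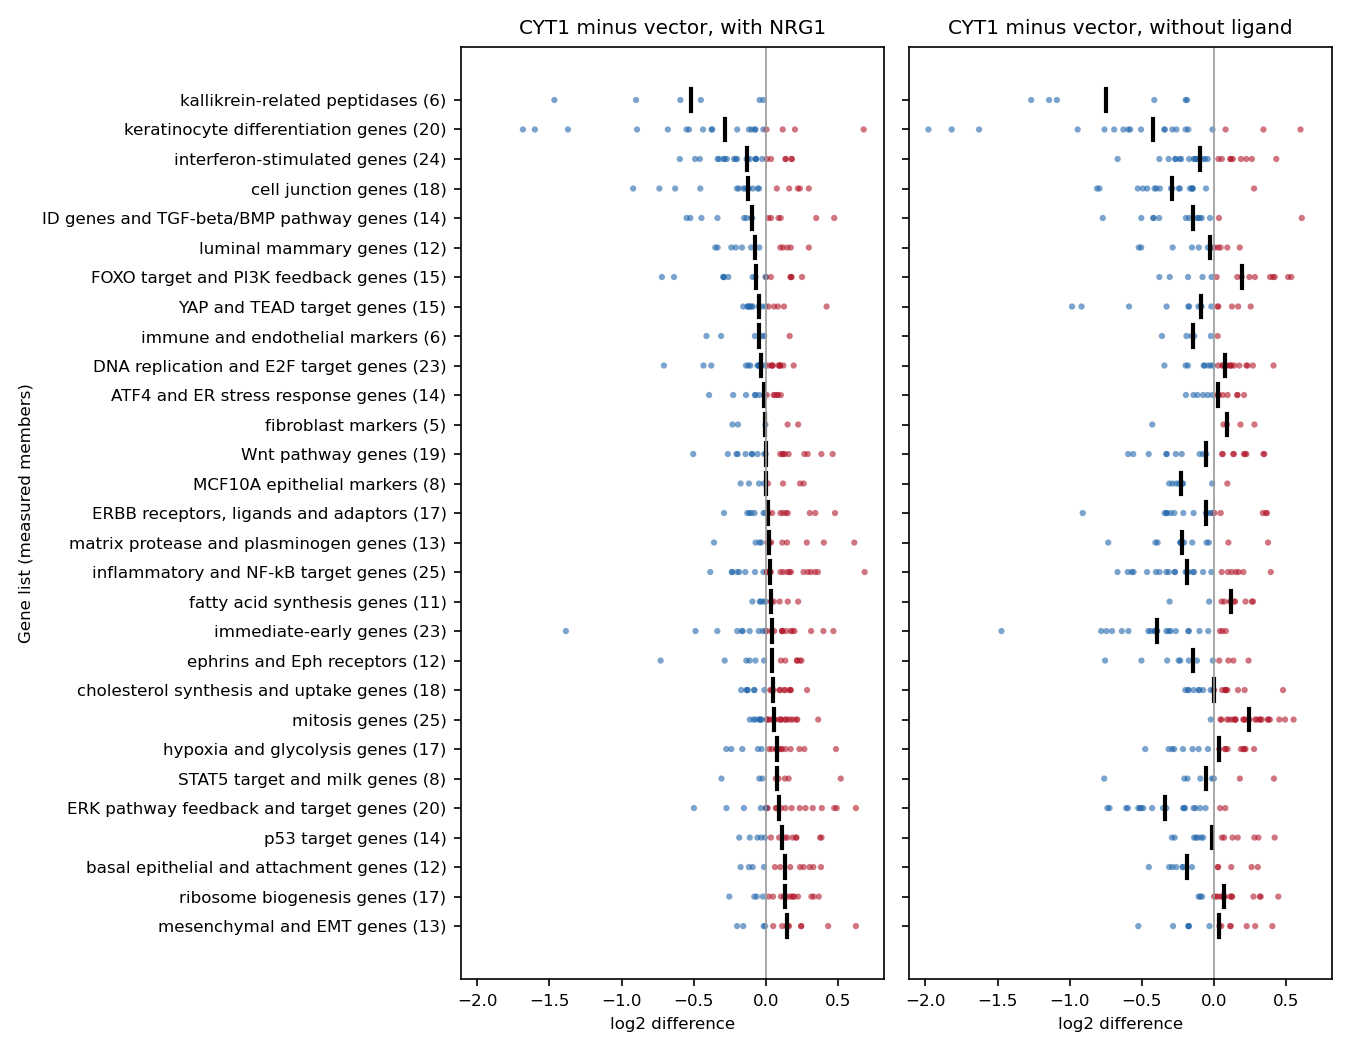
Log2 difference CYT1 minus vector (x axis) for each measured member (points, blue below 0 and red above) of 29 gene lists (y axis, with the number of measured members), with NRG1 on the left and without ligand on the right, and a black bar at the median. The kallikrein and keratinocyte lists have the lowest medians with NRG1, -0.52 and -0.29, while the ERK and immediate-early lists lie at 0.09 and 0.04 with NRG1 and at -0.34 and -0.39 without ligand.

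Junction proteins hold epithelial cells together. Of 22 cell junction genes, 18 were measured, with a median of -0.12 with NRG1 and -0.29 without ligand, or -0.04 and -0.08 in the authors' unnormalized values and -0.06 and -0.13 with median scaling. At an unadjusted p under 0.05, 4 were lower and 1 higher with NRG1, against 4.99% and 4.01% of all genes, and 9 were lower and 1 higher without ligand, against 6.62% and 7.33%. The tight junction protein CLDN7 measured 8.39 and 8.11 in CYT1 cells and 9.10 and 8.88 in vector cells, a difference of -0.74 ± 0.13 with an adjusted p of 0.0817, and it passed without ligand (-0.79 ± 0.13, adjusted p 0.0289). The connexin GJA1 differed by -0.92 ± 0.27, with detection on 3 of the 4 CYT1 arrays and all 4 vector arrays, and the desmosomal PKP1 and DSC2 by -0.63 ± 0.21 and -0.46 ± 0.15. The higher one was the claudin CLDN4, which lay near background in vector cells. It measured 5.14 and 5.32 in CYT1 cells, where 4 of 4 arrays detected it, and 4.99 and 4.88 in vector cells, where 1 of 4 did. Another connexin, GJB2, differed by 0.22 ± 0.10 with NRG1 and -0.53 ± 0.10 without ligand. The 4 lower members became 2 without sample 2 of CYT1 cells and 2 without sample 2 of vector cells.

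The inhibitors of differentiation ID1, ID2 and ID3, helix-loop-helix proteins that BMP signalling induces, were the 3 lower members at an unadjusted p under 0.05 among 14 measured of 22 ID genes and TGF-beta/BMP pathway genes. ID3 measured 10.49 and 10.68 in CYT1 cells and 11.08 and 11.19 in vector cells, a difference of -0.55 ± 0.12 (adjusted p 0.152). ID1 differed by -0.45 ± 0.19 and ID2 by -0.52 ± 0.23. Over all genes, 4.99% were lower and 4.01% higher at an unadjusted p under 0.05. SMAD7, which inhibits the TGF-beta receptor, and the ligand TGFB2 were higher at 0.35 ± 0.15 and 0.47, and the list median was -0.10, or -0.06 without background correction, -0.01 with median scaling and 0.006 in the authors' unnormalized values. The 2 higher became 0 without sample 1 of CYT1 cells or sample 2 of vector cells, and 1 without sample 1 of vector cells. The count of 3 lower became 1 without sample 1 of CYT1 cells and 1 without sample 2 of vector cells.

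Among 24 measured of 29 interferon-stimulated genes the median was -0.13 and 18 lay below 0. It was -0.07 without background correction, -0.04 with median scaling and -0.02 in the authors' unnormalized values. At an unadjusted p under 0.05, IFI27, BST2, IFI6 and IRF7 were lower and none was higher, against 4.99% and 4.01% of all genes. BST2, the antiviral membrane protein tetherin, measured 7.08 and 7.41 in CYT1 cells and 7.74 and 7.73 in vector cells, a difference of -0.49 ± 0.12 (adjusted p 0.243). The immune and endothelial markers also had lower sums in CYT1 cells (9.30 to 9.50) than in vector cells (9.56 to 9.58). The median difference of the 6 measured was -0.05 and the highest 0.16. CD14 differed by -0.31 ± 0.14, with -0.12 at its other probe, and CSF1R by -0.41 ± 0.14. The part of these markers in the result was not tested. The 4 lower became 1 without sample 1 of CYT1 cells, 7 without sample 2 of CYT1 cells and 1 without sample 2 of vector cells.

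Genes of cell division and growth were measured nearly in full. All 25 mitosis genes were measured, with a median of 0.06 (0.13 in the authors' unnormalized values and 0.15 with median scaling) and 1 higher, the checkpoint kinase BUB1B (0.36 ± 0.11), at an unadjusted p under 0.05. That count became 2 on leaving out either CYT1 sample and 0 without sample 1 of vector cells. Without ligand the median was 0.24 (0.37 in the authors' unnormalized values and 0.41 with median scaling), with 10 higher and 0 lower, 6 without sample 2 of CYT1 cells. Over all genes, 4.01% were higher and 4.99% lower at that p with NRG1, and 7.33% higher and 6.62% lower without ligand. With NRG1, of 23 measured DNA replication and E2F target genes 1 was lower, E2F2 itself. It measured 8.0 and 8.37 in CYT1 cells and 8.78 and 9.01 in vector cells. The difference was -0.71 ± 0.14 with an adjusted p of 0.0929 in limma. The 17 measured ribosome biogenesis genes had a median of 0.14 (0.21 with median scaling), with the nucleolar proteins NOP56 (0.33 ± 0.13, with 0.16 and 0.008 at its other probes) and RRP12 (0.37 ± 0.13) higher at an unadjusted p under 0.05. The 2 higher became 5 when CYT1 sample 2 was left out, 0 for vector sample 2, and 1 for either other sample.

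Among 25 measured inflammatory and NF-kB target genes the median was 0.03 (0.14 without sample 2 of vector cells and 0.12 with median scaling), and 3 were higher at an unadjusted p under 0.05, CSF3, the adhesion molecule ICAM1 (0.36 ± 0.12) and the superoxide dismutase SOD2 (0.29 ± 0.11, with -0.003 and 0.19 at its other probes). The 3 became 1 without sample 1 of vector cells. Without ligand the median of the inflammatory list was -0.19, or -0.003 in the authors' unnormalized values. There 1 member was higher and 4 were lower at an unadjusted p under 0.05. Of the lower members, IL1B passed the threshold at -0.67 ± 0.11 (adjusted p 0.0289 in limma), against -0.14 ± 0.11 with NRG1. Over all genes, 4.01% were higher and 4.99% lower at that unadjusted p with NRG1, and 7.33% higher and 6.62% lower without ligand. With NRG1, among 13 measured matrix protease and plasminogen genes, MMP3 and the protease inhibitor SERPINE2 (0.40 ± 0.14) were higher and the metalloproteinase MMP7 was lower. MMP7 was detected on no CYT1 array and 2 vector arrays and was at least 1.01-fold lower. Among 13 measured mesenchymal and EMT genes, the transcription factor SNAI2 (0.43 ± 0.15) and NT5E were higher, with a list median of 0.14 (0.22 with median scaling). In both lists the 2 higher became 1 without sample 2 of vector cells, and in the mesenchymal list also without sample 1 of CYT1 cells. The other 11 lists held 152 measured genes with medians between -0.07 and 0.13. At an unadjusted p under 0.05, 10 were higher and 7 lower, against 4.01% and 4.99% of all genes. No list held more than 2 in either direction.

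CYT2 cells with NRG1 share the vector samples as control, so their differences from vector are set beside those of CYT1 without a test. KRT13 was above background on 4 of 4 CYT1 arrays and 0 of 4 CYT2 arrays with NRG1, so it has only a bound in CYT2 cells, at least 3.1-fold lower than in vector cells. KLK7 differed from vector by -1.47 in CYT1 cells and -1.94 in CYT2 cells, CLDN7 by -0.74 and -0.92, and TXNIP by -0.72 and -0.80. MMP3 differed by 0.61 in CYT1 cells and 2.00 in CYT2 cells. Tested directly, CYT1 minus CYT2 cells with NRG1 gave 1 gene past the threshold of 12357 (0.00809%), MMP3, and 812 at an unadjusted p under 0.05 (6.57%), 486 of them higher (3.93%) and 326 lower (2.64%) in CYT1 cells. MMP3 averaged 6.23 in CYT1 cells (samples at 6.17 and 6.29) and 7.62 ± 0.14 in CYT2 cells (SD), a difference of -1.39 ± 0.12 with an adjusted p of 0.000435 in limma. KRT13 was at least 1.2-fold higher in CYT1 cells by the lowest detected signal, and KLK7 differed by 0.47 ± 0.19, and neither passed, with adjusted p-values of 0.753. MMP3 did not pass with only the compared groups in the fit (adjusted p 0.0726), with technical array 1 (0.546) or 2 (0.854) alone, or with all 24 arrays and the sample as a random block (0.0749). Its difference was -0.77 without background correction and -0.78 in the authors' unnormalized values, and it passed in both.

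**Figure D4:**
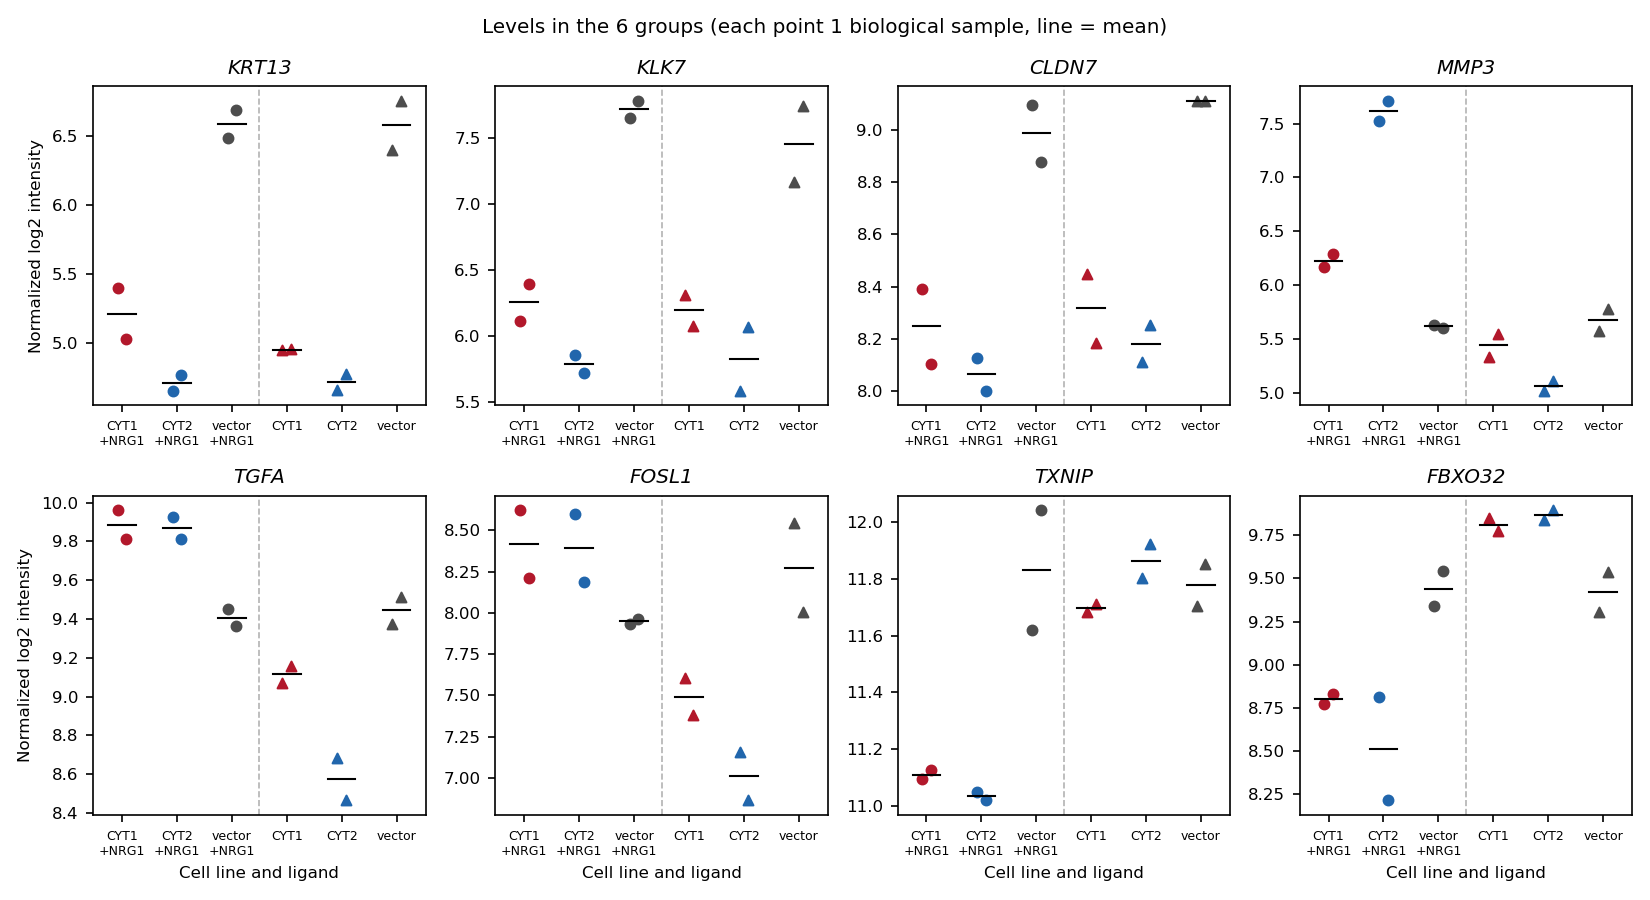
Normalized log2 intensity (y axis) of 8 genes in the 6 groups (x axis), those with NRG1 as circles left of the dashed line and those without ligand as triangles right of it, with CYT1 in red, CYT2 in blue and vector in grey. Each point is 1 biological sample and each line the mean of its 2 samples. KRT13, KLK7 and CLDN7 lie lower in both ERBB4 lines with and without NRG1, where KRT13 was above background on 0 of 4 arrays in CYT2 cells, MMP3 lies highest in CYT2 cells with NRG1 (7.62), and FBXO32 averages 8.80 in CYT1 and 9.44 in vector cells with NRG1, and 9.81 in CYT1 and 9.42 in vector cells without ligand.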

How the data were processed

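Signals of MCF10A cells on Illumina arrays were analysed. The deposited scanner table gives an intensity (mean bead signal) and a detection p-value for 47323 probes on 24 arrays, per the file headers. The authors' deposited log2 value table equalled the log2 of that signal to within 5e-09 and so is not normalized. Neither scanner software nor genome build is given in the sources used here. Of the probes, 30113 had 1 gene symbol in the platform annotation, 8 several and 17202 none, and only the first were named.

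The neqc function of limma 3.58.1 under R 4.3.3 corrected the background and scaled arrays by quantiles (offset 16), and the 2 technical arrays of each sample were averaged. Probes with a detection p under 0.05 on at least 4 of 24 arrays were kept (23019), with the brightest probe for each of 12357 genes. Arrays detected 39.6% to 43% of probes, and their number limits the precision. All 12 samples in 6 groups entered 1 limma model (6 residual and 6.31 prior degrees of freedom), with Benjamini-Hochberg adjustment over all genes and a threshold of 0.05. The fit was tested on simulated data, with known changes added to independent noise of the same spread in all 12 samples. These held no outlying sample, so the simulation does not cover one. A fold of "at least" was taken against the lowest detected signal. No chip or scan date was given, so no batch could be tested.

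Named genes were to be the 15 largest rises and falls past the threshold with groups that do not overlap. With under 10 in a direction, the 10 largest at an unadjusted p under 0.01 were given as values, and ERBB receptors and ligands always. In the other 3 tests the 5 smallest p past the threshold in each direction, or the 3 smallest, were added. Other list members were chosen after their values were seen. The members of the comparison and the 29 gene lists were chosen with earlier results of these data known. Alternatives covered background correction, scaling, filters, technical arrays, the model and left-out samples. Same-numbered samples correlated by -0.17 to 0.23 in their deviations from group means (15 pairs of groups, 0.05 in the main pair), so the numbers were not taken as pairs.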

Additional observations from a re-analysis of the deposited data

Results flagged for a closer look

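MMP3 differed between the ERBB4 lines with NRG1, by -1.39 on the log2 scale for CYT1 minus CYT2 cells (limma, adjusted p 0.000435), in a direct test of that difference. It did not pass with only the compared groups (0.0726), with technical array 1 (0.546) or 2 (0.854) alone, or with the sample as a random block over all 24 arrays (0.0749). Of the probes that carry no gene name in the annotation used, ILMN_1667232 passed the threshold without ligand, at 1.14 for CYT1 minus vector (adjusted p 0.0162), and it differed by 0.94 ± 0.14 (SE, adjusted p 0.0633) with NRG1. ILMN_1780861, also without a name, passed without ligand at -0.61 (adjusted p 0.0454) and differed by -0.18 ± 0.10 with NRG1.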

How the results depend on the processing

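With NRG1 the count of genes past the threshold was 2 as reported. It was 0 from the authors' unnormalized values, 4 with median scaling (1 higher, 3 lower), 0 with no filter on detection, 4 with technical array 1 alone and 1 with technical array 2 alone. It was 92 with all 24 arrays and the sample as a random block (19 higher, 73 lower), 22 with trend and robust moderation (2 higher, 20 lower) and 15 with the replicate number as a block (3 higher, 12 lower). Leaving out 1 sample gave 0 to 255: 255 without sample 2 of CYT1 cells (86 higher, 169 lower), 1 without sample 1 of CYT1 cells and 0 without sample 2 of vector cells. KRT13 passed in 12 of 16 alternatives (-1.56 to -0.51) and KLK7 in 10 of 16 (-1.61 to -0.79). Over the 27 named genes, 379 of 432 values kept their direction and side of the threshold, 37 passed newly, 10 no longer passed and 6 changed sign: EGFR -0.021 with technical array 1 alone and -0.11 to 0.138 with 1 sample left out, ERBB2 0.027 in the authors' values and 0.017 with median scaling, and HBEGF -0.253 to 0.339 with 1 sample left out (-0.112 without sample 1 of vector cells).

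Without ligand the count was 24 as reported (6 higher, 18 lower). It was 87 without background correction (31 higher, 56 lower), 0 from the authors' values, 3 with no filter, 1 and 2 with technical array 1 and 2 alone, 398 with the random block (191 higher, 207 lower), 8 with only the compared groups (1 higher, 7 lower), 60 with trend and robust moderation, and 1 to 64 with 1 sample left out (15 without sample 1 and 64 without sample 2 of vector cells, 1 or 2 without a CYT1 sample). Median scaling gave 22 (13 higher, 9 lower). The median of all genes without ligand shifted to 0.107 in the authors' values and 0.124 with median scaling, against 0.005 as reported. The 0 genes for the NRG1 effect became 10 with the random block. The 1 gene for CYT1 minus CYT2 cells became 0 with technical array 1 alone, with technical array 2 alone, with the random block and with only the compared groups, and 1 to 81 with 1 sample left out (81 without sample 2 of CYT1 cells). The replicate block moved no other count by over 1.5 times. The cause of these changes was not tested. Signal over background limits KRT13 in CYT2 cells, KRT13 and TCN1 in CYT1 cells without ligand, and MMP3 and POGLUT3 without ligand. With NRG1 it limits TCN1, DPYSL4, MMP7, CLDN4, CSF3, SBSN, GJA1, KLK6 and KLK8. None of these was detected on every array of those groups.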
